A study of Mus musculus with 71 samples.

Results

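Glucocorticoid-induced genes are described here through 10 of the 37681 genes in the tables, which are Fkbp5, Tsc22d3, Zbtb16, Hif3a, Sgk1, Pdk4, Cdkn1a, Plin4, Sult1a1 and Fmo2. They are genes known to be induced by glucocorticoids, and they were selected on their values in the 1-day cocaine-against-saline contrasts of the same series. Their 1-day differences are therefore given as a description with no test. The 10 genes were tested at 28 days of abstinence and between regions in saline mice. All 10 passed the filter on low values in all 6 tables, and all were detected in every library.

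RNA-seq was measured in 71 libraries of the nucleus accumbens (NAc), ventral tegmental area (VTA) and prefrontal cortex (PFC), brain regions of the reward circuit. The adult mice were wild type of the strain C57BL/6 (C57BL/6J in the methods of the study) with no transgene, and had earned intravenous infusions of cocaine or, as controls, of saline, by spinning a wheel (self-administration, SA). By the methods of the study the mice were male and female, and were food-restricted and trained on food pellets before catheter surgery. Sex was not a term in the fits. Tissue was punched out 1 or 28 days after the last session, so that abstinence and the surgery for the catheter were shared by cocaine and saline mice. Each of the 12 groups, 1 per region, time point and treatment, had 6 libraries, except saline VTA at 28 days with 5. The sources used here do not say whether a library came from 1 mouse or whether the 3 regions came from the same mice, so p-values measure the spread between these libraries.

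Glucocorticoids, corticosterone in the mouse, are steroid hormones released by the adrenal cortex in stress and at the start of the active phase. They bind the glucocorticoid receptor, which is held in the cytoplasm by chaperones, moves to the nucleus on binding hormone and acts at short DNA sequences near the genes it regulates. In the brain its target genes are induced in neurons, astrocytes and the cells of blood vessels, and they include proteins that feed back on the receptor, transcription regulators, kinases and enzymes of lipid and energy metabolism.

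The libraries held between 20971967 and 49700932 reads on genes. In every library the markers of its own region summed to more than in any library of another region, but several libraries held markers of a second region. Cortical excitatory neuron markers summed to 57.8 to 982 CPM (counts scaled to equal library totals) in NAc libraries at 1 day and to 67.8 to 713 at 28 days, against 1622 to 2607 in PFC libraries at 28 days. In the PFC at 28 days, the markers of medium spiny neurons, the main neurons of the NAc, summed to 3322 CPM in the saline library numbered 4 and to between 282 and 366 in the other 11. Blood markers summed to 328 CPM in that library and to 46.7 to 102 in the other 11. In the VTA at 1 day, markers of meningeal fibroblasts, cells of the membranes around the brain, summed to 909 and 2044 CPM in cocaine libraries 3 and 6, whereas the highest saline library had 492. Values without PFC saline library 4 and without these VTA libraries are given after the single genes. The columns of the 28-day tables give the group and a number, but not which labelled sample they hold, so the number only names a library there.

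The sequence the receptor prefers is a pair of inverted half-sites, AGAACA and TGTTCT with 3 bases of any kind between them. In the mm9 genome, the build of the deposited tables, the 10 genes with 10 kb on each side held 3 copies of these 15 letters, 2 in Fkbp5 and 1 in Sgk1. All 3 lay in introns, outside every annotated exon. They are shown because Fkbp5 and Sgk1 are the members with the complete sequence, with the 15 letters in capitals and read on the strand of the gene.

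Fkbp5, chr17:28557266-28557280, intron: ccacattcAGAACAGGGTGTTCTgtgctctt
Fkbp5, chr17:28579364-28579378, intron: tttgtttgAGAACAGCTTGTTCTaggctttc
Sgk1, chr10:21713507-21713521, intron: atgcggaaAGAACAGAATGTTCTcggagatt

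The 10 genes held 3.90 copies per megabase, and all 22380 protein-coding genes measured the same way held 0.264. The Fkbp5 copies lay 97.2 and 75.1 kb into the gene from its annotated start, and the Sgk1 copy 111.5 kb, counted from the outermost annotated start of that gene. A looser form of the sequence, GNACA and TGTNC with 3 bases between them, where N is any base, was searched on both strands in the RefSeq promoters of GRCm38.p6, which span 250 bases before to 50 after each start. Every complete copy also holds this form. Of the 18 promoters of the 9 members with an entry, 1 held it, against 0.475% of all 32851 promoters. That promoter is the fifth listed for Sgk1, at chr10:21993640-21993939 on the plus strand, and its match, in capitals, starts 188 bases before the transcription start and is part of the same stretch as the intron copy.

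Sgk1 promoter: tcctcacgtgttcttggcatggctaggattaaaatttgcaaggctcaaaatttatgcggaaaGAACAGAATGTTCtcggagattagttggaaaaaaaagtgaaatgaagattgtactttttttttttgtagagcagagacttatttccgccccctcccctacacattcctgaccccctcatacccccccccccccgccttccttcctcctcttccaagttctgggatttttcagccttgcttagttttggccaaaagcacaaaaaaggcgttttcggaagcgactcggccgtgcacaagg

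In mm9 windows reaching 5 kb to each side of the gene start, the looser form was found for 3 of the 10 genes and for 15.6% of all 22374 genes. Fkbp5 held 4 copies, Plin4 held 2 and Cdkn1a held 1. The nearest to the start in Fkbp5 and in Plin4, and the copy in Cdkn1a, are printed on the strand of the gene with the match in capitals.

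Fkbp5, chr17:28655125-28655137, 662 bases before the start: ctcgcccgGGACATTGTGTTCcagcccca
Plin4, chr17:56248275-56248287, 944 bases after the start: agagtccaGCACAGAATGTCCtctcgcag
Cdkn1a, chr17:29231645-29231657, 3727 bases after the start: tttggcggGCACAGTATGTTCccagggaa

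The single half-site AGAACA was found in 6 of the 18 promoters, those of Tsc22d3, Sgk1, Sult1a1 and Fmo2, and in 19.0% of all promoters. The clock-factor sequence CACGTG was found in 2 of the 18, 1 each of Fkbp5 and Sgk1, and in 7.15% of all promoters. These matches describe letters in the genome and were not measured as sites bound by the receptor.

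At 1-day of abstinence all 10 genes had a fitted log2 fold change above 0 in each of the 3 regions. Plin4 had the largest in every region, between 4.42- and 5.93-fold, and Cdkn1a and Pdk4 were among the smallest. The median log2 fold change of the 10 was 0.64, 1.03 and 0.48 in the NAc, VTA and PFC, while over all genes tested it was within 0.03 of 0. At 28-days the direction was the opposite for most members, with medians of -0.16, -0.37 and -0.10, and no member passed the test across all genes. Levels below are in RPKM, reads scaled by the length of the gene and the depth of the library, and folds are cocaine over saline. In whole tissue, more RNA per cell and more cells that express a gene cannot be told apart.

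Fkbp5 encodes a co-chaperone that lowers the receptor's affinity for hormone, and it is a feedback gene of the pathway. In the NAc at 1-day, its level ran from 13.7 to 19.8 RPKM after cocaine (median 16.2) and from 13.4 to 14.4 after saline (median 13.7), a log2 fold change of 0.25 ± 0.08 (SE, n = 6 per group, as at every 1-day value). The VTA range was 7.09 to 34.2 after cocaine (median 11.3) and 5.71 to 7.08 after saline (median 6.51), a log2 fold change of 1.02 ± 0.33. In the PFC it ran from 8.56 to 13.1 (median 9.57) against 6.52 to 7.73 (median 6.89), a log2 fold change of 0.48 ± 0.09. Cocaine and saline libraries did not overlap in the VTA or the PFC, and 4 of the 6 NAc cocaine libraries lay above every saline library. The VTA separation was narrow at its lower end, with a few libraries far above the rest.

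At 28-days the Fkbp5 levels overlapped in all 3 regions. In the NAc they ran from 12.8 to 16.8 RPKM after cocaine and from 12.5 to 17.3 after saline. The VTA saline libraries read 7.18, 6.06, 6.69, 10.4 and 10.5 RPKM, and the cocaine libraries 5.79 to 9.94 (median 6.40). In the PFC the range was 6.83 to 8.66 after cocaine and 6.67 to 12.6 after saline. The high end in saline came from the libraries numbered 4 and 5 in the VTA and from library 4 in the PFC, which also held the medium spiny neuron markers. The log2 fold changes were -0.02 ± 0.10, -0.25 ± 0.17 and -0.17 ± 0.13 in the NAc, VTA and PFC, and none passed the test (edgeR quasi-likelihood, adjusted p = 0.983, 0.541 and 0.874). Without that PFC library the PFC value was -0.02.

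Tsc22d3, also called GILZ, is a leucine zipper protein that carries anti-inflammatory actions of glucocorticoids. Its 1-day level in the NAc was 18.2 to 31.9 RPKM after cocaine (median 20.1) and 15.5 to 18.9 after saline (median 17.8). In the VTA it was 40.8 to 70.0 (median 47.2) against 37.0 to 49.7 (median 42.0), and in the PFC 23.0 to 38.3 (median 26.6) against 18.8 to 25.4 (median 21). The log2 fold changes were 0.42 ± 0.14, 0.24 ± 0.13 and 0.38 ± 0.13. The groups overlapped in every region, and 5, 2 and 3 of the 6 cocaine libraries were above the highest saline library.

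In the VTA at 28-days, Tsc22d3 was the 1 member whose groups did not overlap. The saline libraries read 46.1, 42.0, 40.3, 43.1 and 58.1 RPKM, and the cocaine libraries ran from 33.6 to 40.1 (median 38.0). All 6 cocaine libraries were below all 5 saline libraries, which was the case for 0.348% of the genes tested in that table. The log2 fold change was -0.30 ± 0.10 (edgeR adjusted p = 0.394) and lay between -0.34 and -0.19 when each library was left out in turn. It therefore did not pass the correction for 16937 genes. In the NAc the value was 0.02 ± 0.08 and in the PFC -0.06 ± 0.09, with overlapping groups.

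Zbtb16 encodes PLZF, a zinc finger transcriptional repressor with a strong response to steroid hormones in many tissues. At 1-day, NAc libraries held 1.87 to 4.57 RPKM after cocaine (median 2.36) and 1.1 to 1.96 after saline (median 1.39), a log2 fold change of 0.99 ± 0.22. The VTA level was 3.54 to 11.1 (median 5.55) against 2.17 to 3.47 (median 2.62), a log2 fold change of 1.02 ± 0.24. In the PFC it was 9.39 to 11.9 (median 10.8) against 7.85 to 9.16 (median 8.56), a log2 fold change of 0.33 ± 0.07. The groups were apart in the VTA and PFC and touched in the NAc, where the lowest cocaine libraries reached into the saline range. The fold was smallest in the PFC, the region with the highest level of the gene.

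At 28-days Zbtb16 ran from 0.835 to 1.85 RPKM after cocaine and from 1.14 to 1.85 after saline in the NAc, and from 7.37 to 9.08 against 8.24 to 9.59 in the PFC. The VTA saline libraries read 1.5, 3.39, 3.14, 3.90 and 3.97 RPKM, and the cocaine libraries 1.67 to 4.06. Groups overlapped in all 3 regions, with log2 fold changes of -0.29 ± 0.19, -0.33 ± 0.26 and -0.04 ± 0.06 in the NAc, VTA and PFC and none past the test. In the NAc the cortical neuron markers summed to 67.8 to 713 CPM after cocaine (median 145) and to 107 to 630 after saline (median 256). Their part in the Zbtb16 value was not tested.

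Hif3a encodes an alpha subunit of the hypoxia-inducible factors, some forms of which restrain the other subunits. Its 1-day level in the NAc was 1.67 to 2.82 RPKM after cocaine (median 2.39) and 0.930 to 1.33 after saline (median 1.12), a 2.11-fold difference with a log2 fold change of 1.08 ± 0.13. In the VTA it was 2.42 to 5.81 (median 3.09) against 0.999 to 2.55 (median 1.58), and in the PFC 1.53 to 3.04 (median 2.16) against 0.891 to 1.62 (median 1.31). The NAc groups were apart, and in the VTA and PFC 5 of the 6 cocaine libraries were above the highest saline library. The log2 fold changes there were 1.04 ± 0.24 and 0.71 ± 0.15. At 28-days they were -0.28 ± 0.18, -0.39 ± 0.34 and -0.13 ± 0.19 in the NAc, VTA and PFC, with overlapping groups.

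Plin4 encodes a perilipin, a protein that coats lipid droplets. In the NAc at 1-day it read 1.74 to 6.68 RPKM after cocaine (median 2.14) and 0.357 to 0.708 after saline (median 0.483), a log2 fold change of 2.57 ± 0.34. VTA libraries read 3.26 to 15 (median 6.32) against 1.11 to 2.18 (median 1.47), a log2 fold change of 2.14 ± 0.32. In the PFC it read 2.10 to 5.57 (median 3.03) against 0.361 to 0.953 (median 0.598), a log2 fold change of 2.17 ± 0.25. It was the 1 member with every cocaine library above every saline library in all 3 regions. The values rested on at least 55 reads in each saline library and 263 in each cocaine library. Leaving out any 1 library kept the log2 fold change between 2.14 and 2.69 in the NAc and between 1.92 and 2.35 in the VTA. For the PFC it stayed between 2.01 and 2.28.

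At 28-days Plin4 was lower in the cocaine mice in all 3 fitted values. In the NAc it read 0.401 to 0.852 RPKM after cocaine (median 0.671) and 0.639 to 1.82 after saline (median 0.816), and the 3 highest of the 12 libraries were saline libraries. The log2 fold change was -0.66 ± 0.27 (edgeR adjusted p = 0.690), and it was -0.39 without saline library 4. That library also held the highest sum of blood markers, 381 CPM against 59.6 to 149 in the other 11 NAc libraries. All 5 blood markers were lower after cocaine there at an unadjusted p under 0.05, with a median log2 fold change of -0.82, and their part in the Plin4 value was not tested. The VTA saline libraries read 1.30, 2.53, 2.72, 5.74 and 5.96 RPKM against 0.968 to 3.04 after cocaine, a log2 fold change of -0.82 ± 0.41 (adjusted p = 0.453). In the PFC the range was 0.389 to 1.18 against 0.530 to 2.25, a log2 fold change of -0.63 ± 0.36 (adjusted p = 0.842) that moved to -0.28 without saline library 4. None of these 3 passed the test across all genes.

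**Figure D1:**
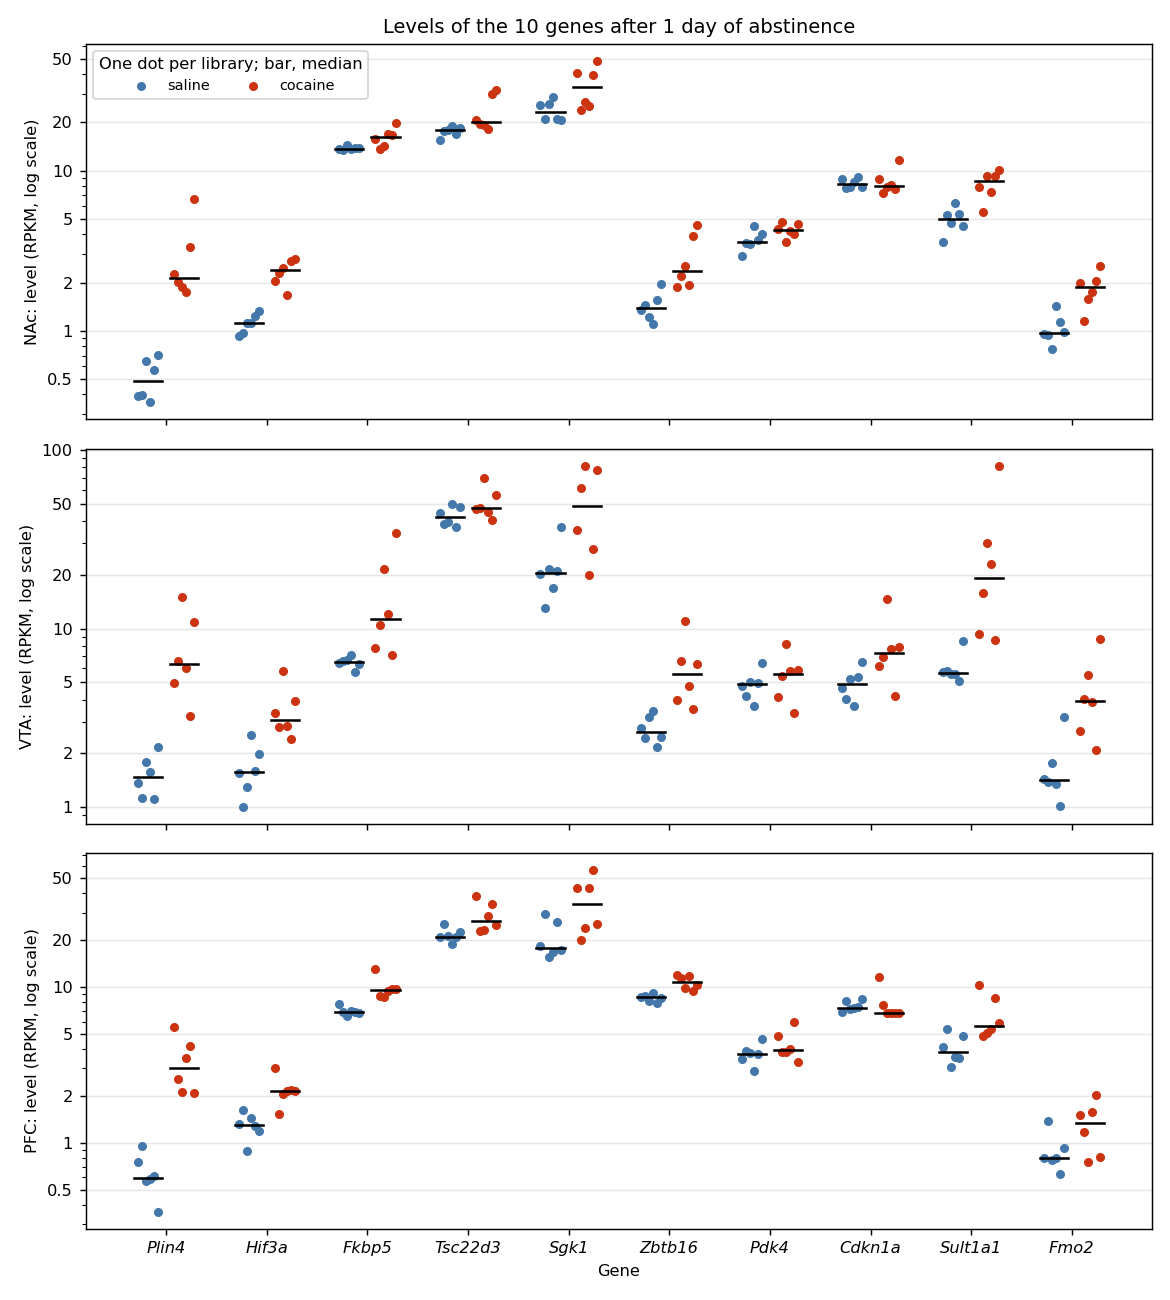
Level of the 10 genes at 1 day of abstinence in RPKM on a log scale, 1 panel per region; each dot is a library, blue for saline and red for cocaine, and the bars are group medians. Plin4 shows all 6 cocaine libraries above all 6 saline libraries in every panel, and Cdkn1a and Pdk4 overlap in every panel.

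**Figure D2:**
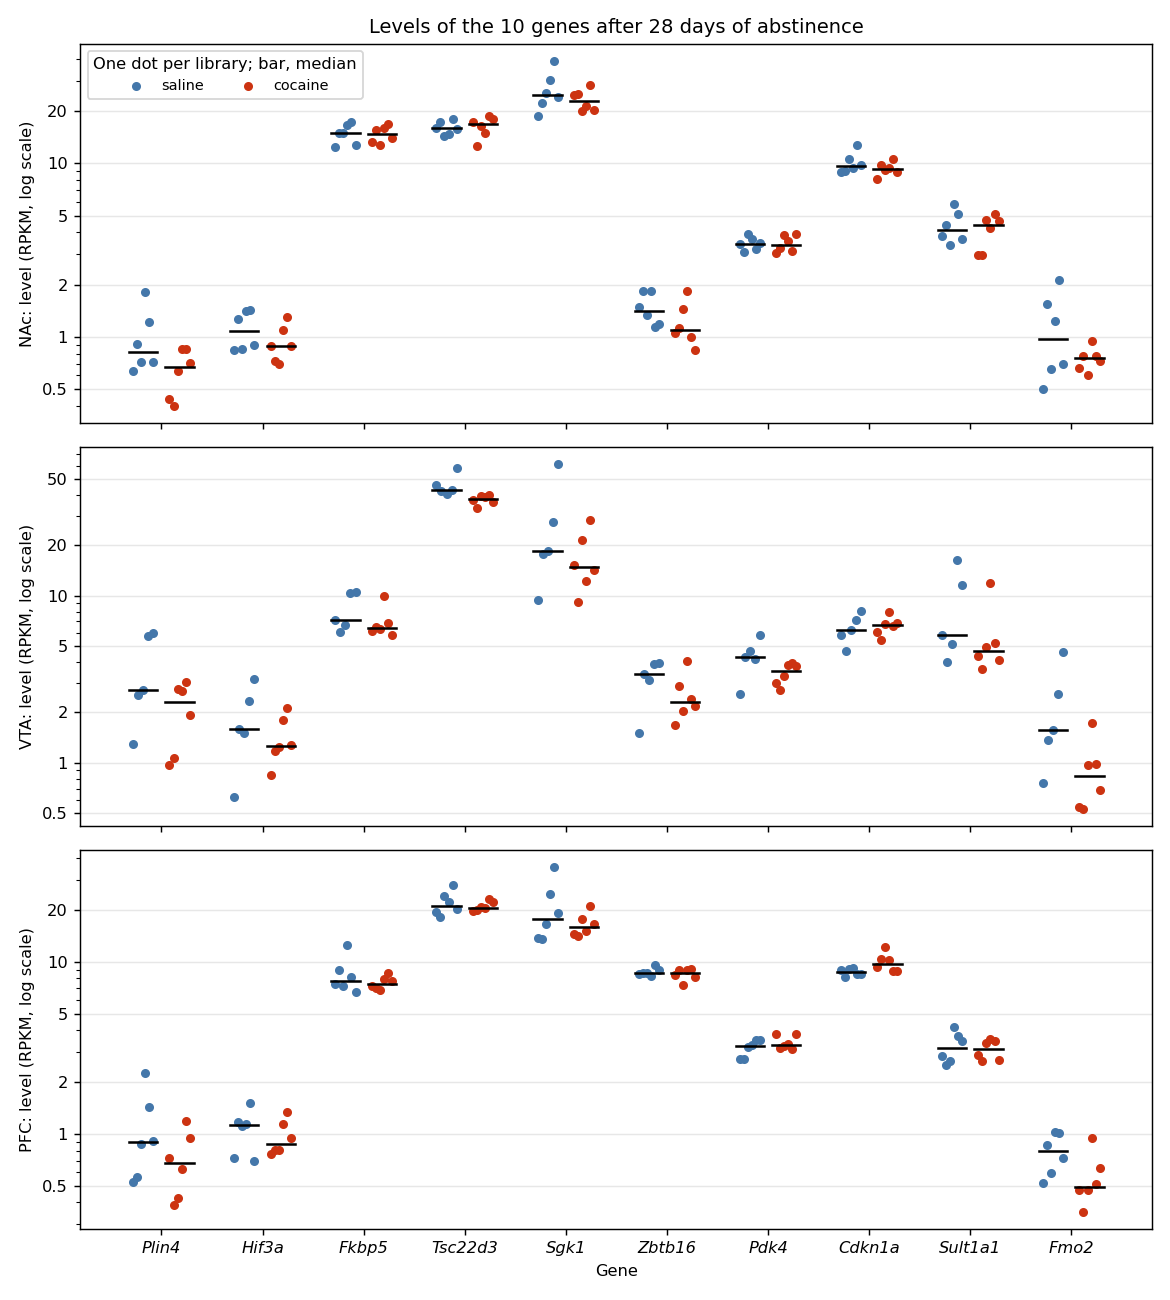
The same genes at 28 days of abstinence, in RPKM on a log scale, with 6 cocaine and 6 saline libraries per panel except for 5 saline libraries in the VTA; bars are medians. The groups overlap for every gene except Tsc22d3 in the VTA, where the cocaine libraries reach 40.1 and the saline libraries start at 40.3.

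Sgk1 encodes a serine/threonine kinase that controls ion channels and transporters, and it is made by oligodendrocytes among other brain cells. Its 1-day level in the NAc was 23.8 to 48.4 RPKM after cocaine (median 33.3) and 20.8 to 28.8 after saline (median 23.4). In the VTA it was 19.9 to 81.9 (median 48.7) against 13 to 37.2 (median 20.5), and in the PFC 20.1 to 56.0 (median 34.2) against 15.6 to 29.5 (median 17.8). The groups overlapped in each region, with 3 of the 6 cocaine libraries above the highest saline library each time. The log2 fold changes were 0.53 ± 0.17, 1.11 ± 0.36 and 0.72 ± 0.25.

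At 28-days Sgk1 had the widest spread of the members among VTA saline libraries. They read 9.39, 17.8, 18.5, 27.6 and 61.2 RPKM, and the cocaine libraries ran from 9.11 to 28.3. Library 5 alone was above the cocaine range. The log2 fold change of -0.69 ± 0.42 fell in size to -0.13 without it. In the NAc it was -0.20 ± 0.15 and in the PFC -0.30 ± 0.21, neither past the test.

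Pdk4 encodes a pyruvate dehydrogenase kinase, which turns cells from glucose towards fatty acids as fuel. It was among the members with the smallest 1-day differences, with log2 fold changes of 0.22 ± 0.11 in the NAc, 0.13 ± 0.19 in the VTA and 0.19 ± 0.14 in the PFC. In the NAc the range was 3.57 to 4.78 RPKM after cocaine and 2.93 to 4.48 after saline. The VTA range was 3.37 to 8.16 against 3.67 to 6.43, and the PFC range 3.31 to 5.99 against 2.88 to 4.63. The groups overlapped throughout, and in the VTA the lowest library of all was a cocaine library. At 28-days the log2 fold changes were -0.01 ± 0.09, -0.34 ± 0.17 and 0.11 ± 0.09, and none passed the test.

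Cdkn1a encodes a cell cycle inhibitor that responds to DNA damage as well as to glucocorticoids. At 1-day its log2 fold change was 0.06 ± 0.11 in the NAc, 0.61 ± 0.24 in the VTA and 0.01 ± 0.12 in the PFC. The NAc range was 7.23 to 11.7 RPKM after cocaine (median 8.03) and 7.83 to 9.16 after saline (median 8.21), and the PFC range 6.77 to 11.6 (median 6.84) against 6.91 to 8.31 (median 7.34). In both regions 1 cocaine library stood above all others and the cocaine median was below the saline median. In the VTA it ran from 4.22 to 14.6 (median 7.34) against 3.70 to 6.46 (median 4.91).

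In the PFC at 28-days, Cdkn1a was the 1 member with a higher level after cocaine at an unadjusted p under 0.05. Its level was 8.79 to 12.2 RPKM after cocaine (median 9.75) and 8.11 to 9.18 after saline (median 8.74), a log2 fold change of 0.20 ± 0.08 (edgeR adjusted p = 0.842). Of the 6 cocaine libraries 4 were above every saline library. An unadjusted p under 0.05 in this direction was met by 2.69% of all genes in the table, and the value did not pass the correction. In the NAc and VTA the 28-day log2 fold changes were -0.12 ± 0.10 and 0.04 ± 0.14.

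Sult1a1 encodes a sulfotransferase that inactivates phenols and catecholamines. In the NAc at 1-day it read 5.54 to 10.1 RPKM after cocaine (median 8.57) and 3.57 to 6.24 after saline (median 4.99), a log2 fold change of 0.75 ± 0.16. VTA libraries held 8.60 to 81.7 RPKM (median 19.3) against 5.09 to 8.51 (median 5.63), a log2 fold change of 1.76 ± 0.46. In the PFC it read 4.84 to 10.3 (median 5.62) against 3.07 to 5.37 (median 3.84), a log2 fold change of 0.66 ± 0.19. The VTA groups were apart, although by little, and cocaine library 6 held far more than any other. In the NAc 5 and in the PFC 3 of the 6 cocaine libraries were above the saline range. Sult1a1 overlaps the gene Ccdc101 on the opposite strand, and the sources used here do not say whether reads were counted by strand, so part of its reads may belong to that gene. The same may hold for Plin4, which overlaps Hdgfrp2, and for Fkbp5, which overlaps a 7SK copy. These overlaps were taken over the whole span of each gene, introns included, and whether exons are shared was not checked.

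At 28-days the VTA saline libraries read 5.84, 4.00, 5.13, 16.2 and 11.6 RPKM for Sult1a1, and the cocaine libraries 3.66 to 11.9 (median 4.65). The 3 high libraries were saline 4 and 5 and cocaine 4. The log2 fold change of -0.59 ± 0.39 moved to -0.23 without saline library 4 and to -0.93 without cocaine library 4. In the NAc it was -0.11 ± 0.17 and in the PFC -0.05 ± 0.14.

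Fmo2 encodes a flavin-containing monooxygenase, an oxidizing enzyme of foreign compounds. At 1-day it read 1.15 to 2.54 RPKM after cocaine (median 1.86) and 0.767 to 1.43 after saline (median 0.962) in the NAc. In the VTA it read 2.09 to 8.74 (median 3.95) against 1.01 to 3.2 (median 1.42), and in the PFC 0.753 to 2.03 (median 1.34) against 0.630 to 1.39 (median 0.799). The groups overlapped in each region, with 5, 4 and 3 of the 6 cocaine libraries above the saline range. The log2 fold changes were 0.85 ± 0.19, 1.29 ± 0.33 and 0.47 ± 0.23.

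At 28-days Fmo2 had the largest negative value of the 10 in the VTA. The saline libraries read 0.757, 1.38, 1.57, 2.58 and 4.62 RPKM, and the cocaine libraries 0.531 to 1.72 (median 0.828). The groups overlapped, although the saline libraries 4 and 5 were above every cocaine library. The log2 fold change was -1.28 ± 0.43 (edgeR adjusted p = 0.394), between -1.55 and -0.79 when each library was left out. In the NAc it was -0.60 ± 0.30 (adjusted p = 0.754) and in the PFC -0.48 ± 0.23 (adjusted p = 0.842).

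Counted over the 10 genes at 1-day, cocaine libraries were all above saline libraries for 2 members in the NAc (Plin4 and Hif3a), 4 in the VTA (Plin4, Fkbp5, Zbtb16 and Sult1a1) and 3 in the PFC (Plin4, Fkbp5 and Zbtb16). Over all genes tested this was the case for 0.157% in the NAc, 1.3% for the VTA and 0.0832% for the PFC. Since the members were selected on these contrasts, nothing is read from these counts. Over all genes in the VTA, limma on log2 RPKM called 24 genes higher and 4 lower, and edgeR on reads recovered from RPKM, with its own normalisation and filter, called 28 higher and 27 lower.

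**Figure D3:**
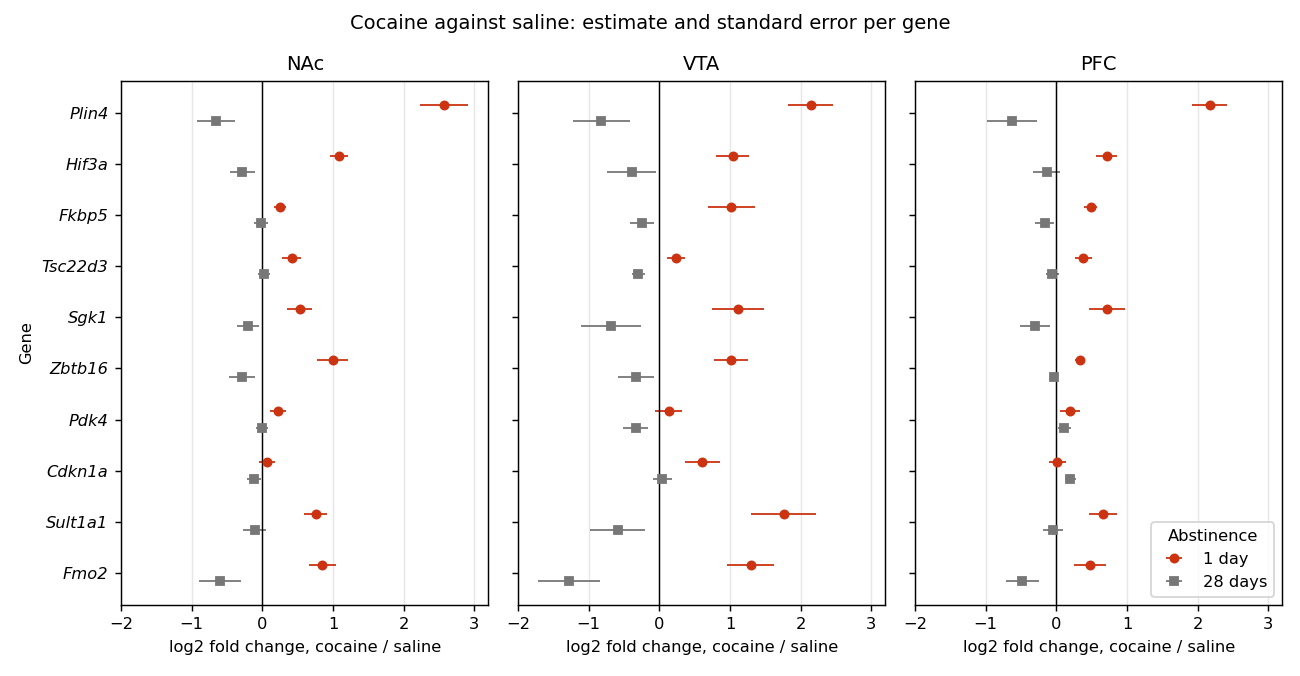
Fitted log2 fold change of cocaine over saline for each of the 10 genes in the 3 regions at 1 day and at 28 days; points are estimates and bars standard errors, and the line at 0 marks no difference. The 1-day estimates lie above 0 for all 10 genes and the 28-day estimates lie below 0 for 9, 9 and 8 genes in the NAc, VTA and PFC.

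At 28-days 0 members and 0 of all genes passed an adjusted p under 0.05 in edgeR in the NAc, VTA or PFC (0% of the genes tested in each). DESeq2 called 14, 74 and 2 genes in these tables, none of them a member. An unadjusted p under 0.05 with a lower level after cocaine was met by Plin4 in the NAc, by Tsc22d3 and Fmo2 in the VTA and by no member in the PFC. Over all genes this was met by 3.42%, 6.39% and 2.97%, and by 558, 1082 and 485 genes. With a higher level it was met by 544, 860 and 440 genes (3.34%, 5.08% and 2.69%). Of the 10 estimates, 9, 9 and 8 were below 0, where 48.0%, 56.9% and 49.9% of all genes had an estimate below 0. All members of a table were measured in the same libraries, so these estimates are not independent of each other.

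Without PFC saline library 4, the one with medium spiny neuron and blood markers, the 28-day log2 fold changes in the PFC were -0.28 for Plin4, -0.11 for Hif3a, -0.39 for Fmo2 and -0.24 for Sgk1. Those of Fkbp5, Tsc22d3 and Zbtb16 were -0.02, -0.053 and -0.052, and those of Pdk4 and Cdkn1a were 0.13 and 0.22. Sult1a1 was at 0.046 and was the 1 gene that changed sign. No member passed the test without that library either.

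In the NAc both time points were deposited as counts and were fitted together. The log2 fold change at 1-day minus that at 28-days was above 0 for all 10 genes, with a median of 0.79. It was 3.22 ± 0.46 for Plin4, 1.44 ± 0.38 for Fmo2, 1.35 ± 0.23 for Hif3a and 1.27 ± 0.31 for Zbtb16. For Sult1a1 it was 0.85 ± 0.24, for Sgk1 0.72 ± 0.25 and for Tsc22d3 0.39 ± 0.17. The remaining values were the smallest against their errors, at 0.26 ± 0.13 for Fkbp5, 0.22 ± 0.14 for Pdk4 and 0.17 ± 0.15 for Cdkn1a. These differences contain the 1-day contrast that selected the genes and are given without a test.

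Within the groups the 10 genes were often high together in the same library. In the NAc at 1-day, cocaine library 6 was the highest of its group for 9 of the 10 genes, all but Pdk4. The same library had the highest sum of cortical neuron markers in the NAc, 982 CPM, and the lowest of medium spiny neuron markers, 4358 CPM. Without it the median log2 fold change of the 10 was 0.53, with Plin4 at 2.14, Hif3a at 1.01, Zbtb16 at 0.79 and Cdkn1a at -0.059. The part of the second tissue in these levels was not tested. In the PFC at 1-day, cocaine library 1 was highest for 7 genes and cocaine library 5 for the other 3, Sgk1, Pdk4 and Fmo2. In the VTA at 1-day, cocaine library 3 was highest for 7 genes and cocaine library 6 for Fkbp5, Sult1a1 and Fmo2. Several genes thus owe the top of their cocaine range to 1 or 2 libraries, while Plin4 kept its separation in all of them.

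At 28-days the high libraries carried the same numbers in every table. The libraries numbered 4 or 5 are 12 of the 35, and they held 55 of the 60 highest places and 85 of the 120 places among the 2 highest of a group. They held 47 of 60 such places among saline libraries and 38 of 60 among cocaine libraries. The numbers 4 and 5 were picked because they were high in these same data. The 10 genes share the same libraries, so the places are not independent and nothing is tested by these counts. In the VTA, saline library 5 was highest for 9 of the 10 genes. What the numbers stand for is not given in the sources used here, and the part of this pattern in the 28-day differences was not tested.

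**Figure D4:**
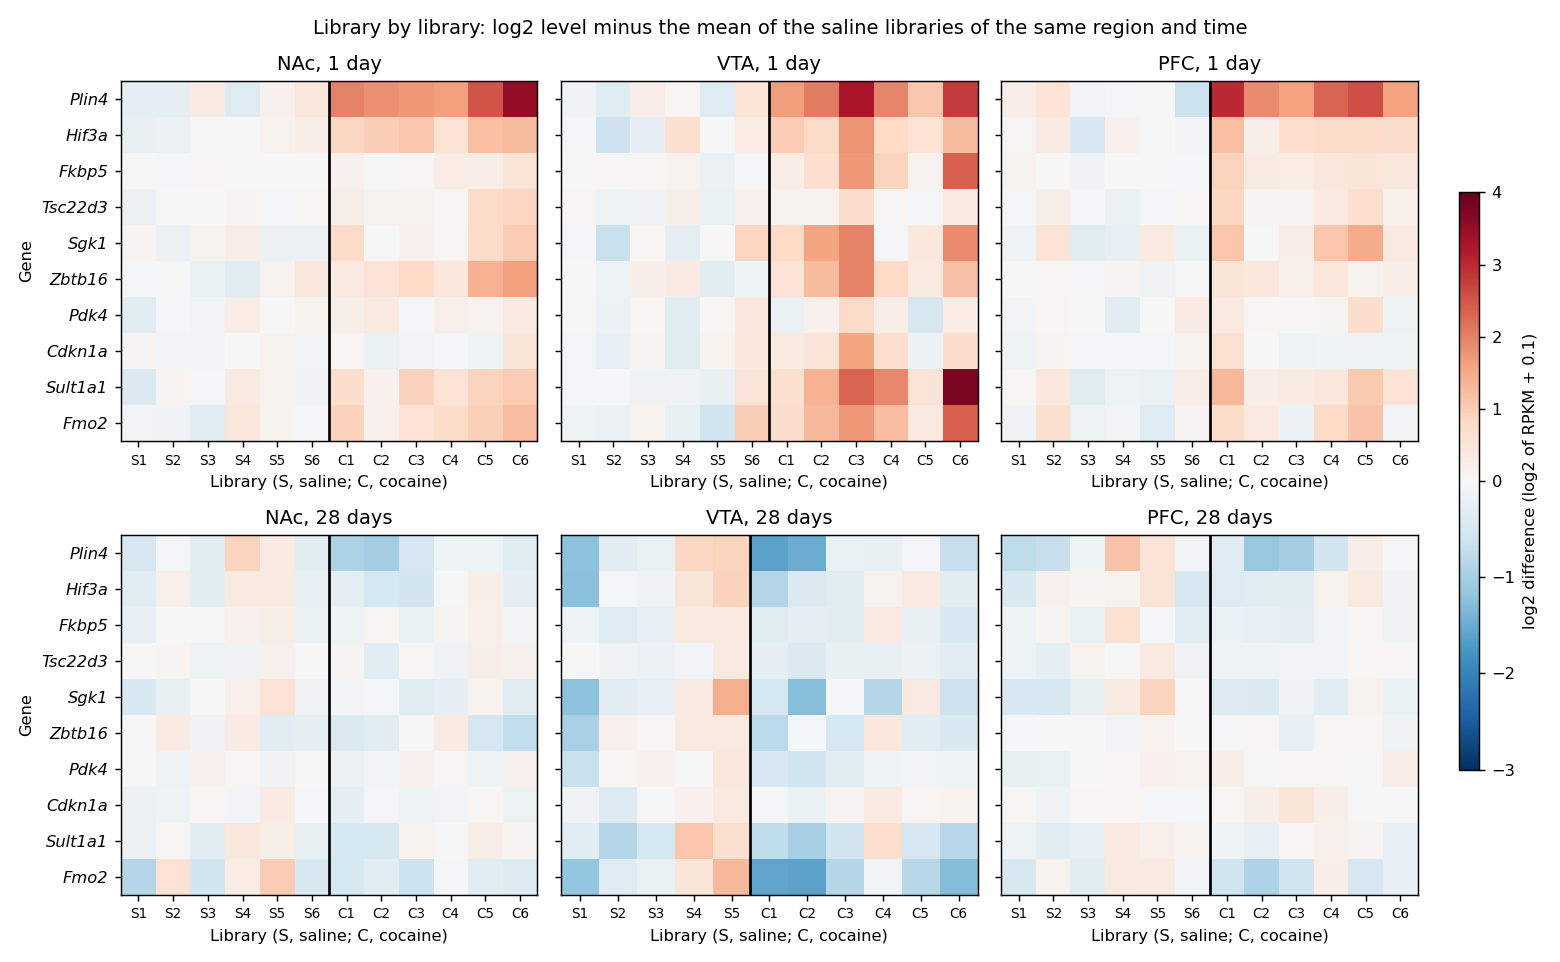
Level of each of the 10 genes in each of the 71 libraries as a log2 difference from the mean of the saline libraries of the same region and time point; red is higher and blue lower, and libraries are in columns by group and number. Cocaine columns at 1 day are red for most genes in all regions, and at 28 days the redder columns are those numbered 4 and 5 in both treatments.

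In the VTA, markers of several cell types also differed between the cocaine and saline groups, those of the meninges and vessel walls among them. At 1-day the 10 meningeal fibroblast markers, among them Dcn, Col1a1 and Lum, summed to 275 to 2044 CPM after cocaine (median 657) and to 151 to 492 after saline (median 264), and none of the 10 was at 0. Markers of pericytes and smooth muscle summed to 329 to 1296 (median 652) against 285 to 544 (median 321). Markers of dopamine neurons, which define the VTA, summed to 1670 to 3948 (median 3122) against 2756 to 6469 (median 5056). Microglia markers summed to 343 to 491 against 506 to 707, so that all 6 cocaine libraries were lower, and all 10 had an estimate below 0, 8 of them at an unadjusted p under 0.05. All 10 oligodendrocyte markers also had an estimate below 0, while all 5 blood markers and all 6 cortical neuron markers tested had one above 0. Blood markers summed to 31.1 to 420 CPM (median 164) against 44.9 to 111 (median 70.8). The 2 cocaine libraries with the highest fibroblast sums, 3 and 6, were also the 2 with the highest level of 9 of the 10 members.

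Without cocaine libraries 3 and 6, an alternative added after seeing the data, 9 of the 10 VTA estimates at 1-day were above 0, with a median of 0.71. Plin4 was at 1.70, Sult1a1 at 1.12, Fmo2 at 0.91, Hif3a at 0.79, Zbtb16 at 0.74, Sgk1 at 0.69 and Fkbp5 at 0.50. Cdkn1a was at 0.34, Tsc22d3 at 0.08 and Pdk4 at -0.07. Plin4, Fkbp5, Zbtb16 and Sult1a1 still had all 4 remaining cocaine libraries above all 6 saline libraries. The part of the remaining markers in these values was not tested.

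At 28-days in the VTA the fibroblast markers summed to 131, 238, 517, 1726 and 750 CPM in saline libraries 1 to 5 and to 137 to 807 (median 243) in the cocaine libraries. Saline libraries 4 and 5 and cocaine library 4 were the 3 highest, and they were also the 3 highest for Fkbp5, Zbtb16, Sult1a1 and Fmo2. The sums of endothelium, oligodendrocyte and microglia markers had lower medians after cocaine, at 409, 17218 and 450 CPM against 534, 21952 and 553. The VTA estimates after cocaine at 28-days were below 0 for 9 of the 10 members. The part of these marker differences in those estimates was not tested.

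In the NAc and PFC the meningeal sums did not separate the groups at 1-day. In the NAc they ran from 134 to 176 CPM after cocaine and from 134 to 183 after saline, and in the PFC from 106 to 147 against 109 to 173. Single meningeal markers leaned lower after cocaine, with 9 of 10 estimates below 0 in the NAc (median -0.22) and all 8 tested in the PFC (median -0.42). Pericyte and smooth muscle markers had 5 of 10 estimates below 0 in the NAc and 10 of 10 in the PFC. Oligodendrocyte markers had 4 of 10 estimates above 0 in the NAc (median -0.07) and 9 of 10 in the PFC (median 0.20). At 28-days all 10 oligodendrocyte markers had an estimate below 0 in both regions, with medians of -0.09 in the NAc and -0.27 in the PFC. The part of these markers in the member levels was not tested.

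**Figure D5:**
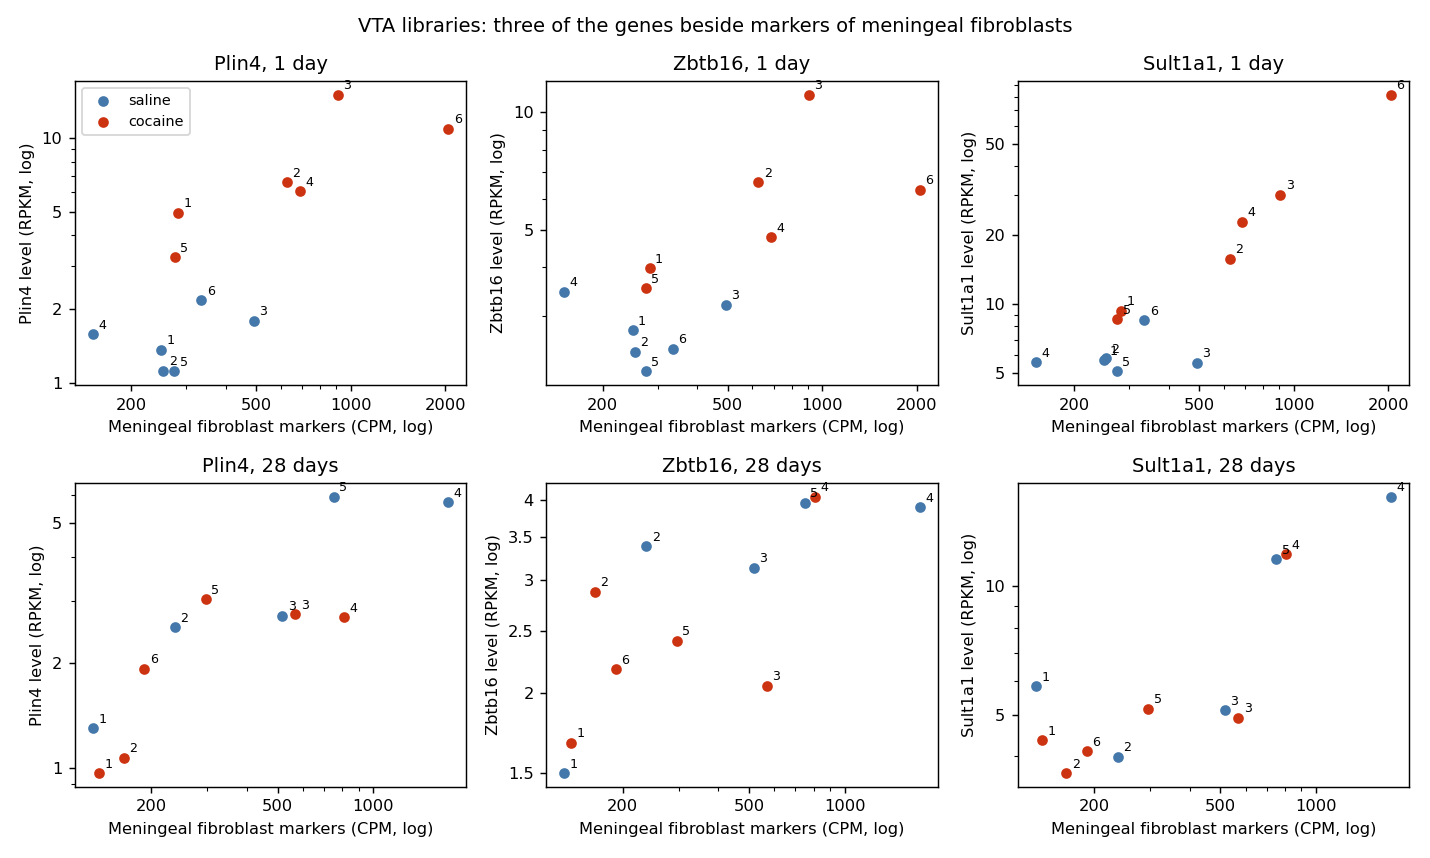
Level of Plin4, Zbtb16 and Sult1a1 in each VTA library in RPKM (vertical, log scale) against the summed meningeal fibroblast markers in CPM (horizontal, log scale), at 1 day in the upper and at 28 days in the lower panels; dots are libraries with their numbers, blue for saline and red for cocaine. The libraries with the highest sums are cocaine 3 and 6 at 1 day, and saline 4 and 5 and cocaine 4 at 28 days.

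The levels also differed between regions in mice that had taken saline, a contrast the selection did not use. In the 17 saline libraries of 28-days, 15 of 30 member-by-pair tests passed an adjusted p under 0.05 (edgeR). They were 6 of 10 between NAc and VTA, 3 of 10 between NAc and PFC and 6 of 10 between VTA and PFC, while 62.5%, 40.7% and 57.8% of all genes passed. Without PFC saline library 4 the same 15 tests passed.

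Tsc22d3 differed in all 3 pairs, with its level highest in the VTA, then the PFC, then the NAc. Its log2 difference was -1.41 ± 0.11 for NAc minus VTA (adjusted p = 9.08e-09), -0.50 ± 0.11 for NAc minus PFC (adjusted p = 0.00135) and 0.91 ± 0.11 for VTA minus PFC (adjusted p = 2.04e-06). Zbtb16 also differed in all 3 pairs, in the order PFC, VTA, NAc. Its log2 difference was -2.61 ± 0.19 for NAc minus PFC (adjusted p = 2.17e-08), the largest of the 30, -1.0 ± 0.19 for NAc minus VTA (adjusted p = 0.000173) and -1.60 ± 0.19 for VTA minus PFC (adjusted p = 1.3e-06).

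Fkbp5 was highest in the NAc, by 0.97 ± 0.18 over the VTA (adjusted p = 0.000119) and by 0.77 ± 0.17 over the PFC (adjusted p = 0.00119). The VTA and PFC did not differ beyond their spread. Plin4 was highest in the VTA, with a log2 difference of -1.74 ± 0.42 for NAc minus VTA (adjusted p = 0.00163) and 1.59 ± 0.42 for VTA minus PFC (adjusted p = 0.00361), and the NAc and PFC did not differ beyond their spread (-0.16 for NAc minus PFC, or 0.21 without PFC saline library 4). Sult1a1 was also highest in the VTA, at -0.85 ± 0.29 for NAc minus VTA and 1.25 ± 0.29 for VTA minus PFC (adjusted p = 0.0158 and 0.00126). Cdkn1a was lowest in the VTA, by 0.77 ± 0.12 against the NAc and 0.60 ± 0.12 against the PFC.

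Fmo2 was higher in the VTA than in the PFC by 1.31 ± 0.42 (adjusted p = 0.0118), and the NAc lay between them without differing from either beyond the spread. Hif3a, Sgk1 and Pdk4 passed in no pair. The VTA saline libraries with the highest Plin4, Sult1a1 and Fmo2 were those with the highest meningeal marker sums. Sult1a1 between NAc and VTA lost its call without VTA saline library 4 (log2 difference -0.50) and in the saline libraries of 1-day (-0.21). Fmo2 between VTA and PFC lost its call without VTA saline library 5 (0.84).

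Other genes of the pathway were followed through a list of 26 glucocorticoid-responsive genes. It was chosen with earlier results of these data known, as were the further lists, so all their counts are a description. At 1-day none passed an adjusted p under 0.05 in any region, where 0.0126%, 0.186% and 0.00693% of all genes in the NAc, VTA and PFC did. At an unadjusted p under 0.05, 5 were higher and 0 lower of 23 tested in the NAc, 10 and 2 of 24 in VTA libraries and 8 and 0 of 23 in PFC libraries. Over all genes tested, 2.76%, 11.1% and 1.64% were higher and 1.25%, 4.29% and 2.5% lower at that p in the NAc, VTA and PFC. The 3 with the smallest p in the NAc were Mfsd2a, a lipid transporter of the blood-brain barrier, at a log2 fold change of 0.47 ± 0.10, Sdc4 at 0.31 ± 0.08 and Arrdc2 at 0.45 ± 0.18. In the VTA they were Map3k6 at 1.36 ± 0.39, Rasd1 at 0.75 ± 0.22 and Errfi1 at 0.52 ± 0.17, with Ndrg2 at -0.25 ± 0.10 and Rhob at -0.19 ± 0.08 in the other direction. In the PFC they were Map3k6 at 0.33 ± 0.09, Sdc4 at 0.32 ± 0.09 and Ddit4 at 0.38 ± 0.11. The list's median was 0.16, 0.35 and 0.12, smaller in each region than that of the 10 members. Since the members were selected on these contrasts, nothing is read from this difference.

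At 28-days 0 of the 26 passed an adjusted p under 0.05 in any region. At an unadjusted p under 0.05, 1 was higher and 2 lower in the NAc, 0 and 7 in VTA libraries and 0 and 4 in PFC libraries, all of 26 tested. The shares of all genes were those given for the members at 28-days. Lcn2, a secreted iron-binding protein, was among the lower ones in all 3, at -2.01 ± 0.59, -2.19 ± 0.84 and -2.98 ± 0.71. In the VTA the metallothioneins Mt2 and Mt1 were at -0.57 ± 0.17 and -0.47 ± 0.17. The list's medians of -0.08, -0.23 and -0.11 lay on the same side of 0 as those of the members.

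The receptor and its partners, 12 genes that include Nr3c1, the receptor itself, its chaperones and the enzymes that activate or inactivate corticosterone, were a further list. Of 11 tested, 0 passed an adjusted p under 0.05 in any table. At 1-day the unadjusted counts were 0 higher and 1 lower in the NAc (Crhr1, -0.28 ± 0.13), 1 and 0 for VTA libraries (Crh, the releasing hormone, 1.11 ± 0.37) and 0 and 0 for PFC libraries. At 28-days 3 were higher in the NAc, the chaperones Stip1 at 0.22 ± 0.07, Hsp90aa1 at 0.22 ± 0.08 and Fkbp4 at 0.18 ± 0.07, none in the VTA and 2 in the PFC.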

How the data were processed

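RNA-seq of the NAc, VTA and PFC was analysed in 71 libraries from 6 tables. Per the submitters' processing notes, the authors aligned reads to mm9 with STAR 2.4.1d. The authors deposited raw counts of reads per gene for the NAc at 1-day and all regions at 28-days, and RPKM for the VTA and PFC at 1-day. The tables also hold the authors' fold changes and p-values, which were not used, and 30 further columns of libraries outside the samples analysed here were not used. Whether reads were counted by strand is not given in the sources used here.

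Counts were tested with edgeR 4.0.16 (R 4.3.3; filterByExpr, TMM, glmQLFTest), and genes averaging 0.5 RPKM or more with limma 3.58.1 on the scale of log2(RPKM + 0.1), which understates folds of low genes. A gene was called at a Benjamini-Hochberg adjusted p under 0.05 over all genes of a table. RPKM for the count tables were computed from the counts with the gene lengths that the RPKM tables imply. Whole reads were recovered for 100% of the genes with reads in both RPKM tables (within 0.01 reads), and edgeR on them called 55 genes in the VTA and 1 in the PFC. Depth ran from 20971967 to 49700932 reads per library. No 2 libraries of a group held identical counts, and all 175 pairs differed by more than sampling noise.

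Groups came from the labels. The 10 genes and the gene lists were chosen with earlier results of these data known. All 10 genes are named in each comparison, and of other lists at most the 3 genes with the smallest p in each direction. Genes overlapping on opposite strands came from the mouse annotation of mm9. Motif searches in mm9 windows and the VTA comparison without 2 libraries were added after seeing the data. Alternatives were DESeq2 1.42.0, its size factors, no filter, a pseudocount of 1, the replicate number as a block, the 1-day saline libraries for the region comparison and leaving out each library. The scripts' tests were checked on simulated data.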

Additional observations from a re-analysis of the deposited data

Results flagged for a closer look

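Of 120 groups of libraries tested (10 genes in 12 groups), 12 had a highest library whose gap to the next was large against its group's range. A rate of 1 in 20 would flag 6. The gaps were taken on RPKM without logs, a scale on which high values lie further apart. The 10 genes also share libraries, so the 120 groups are not independent. Nothing is therefore read from 12 against 6. All 12 were the highest library of the group.

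At 1-day, NAc cocaine library 6 stood apart for Plin4 at 6.68 RPKM and for Cdkn1a at 11.7 RPKM. PFC cocaine library 1 stood apart for Fkbp5 at 13.1 RPKM and for Cdkn1a at 11.6 RPKM. In the VTA, cocaine library 3 stood apart for Cdkn1a at 14.6 RPKM and cocaine library 6 for Sult1a1 at 81.7 RPKM. VTA saline library 6 stood apart for Sgk1 at 37.2 RPKM, for Sult1a1 at 8.51 RPKM and for Fmo2 at 3.2 RPKM. At 28-days, VTA cocaine library 4 stood apart for Fkbp5 at 9.94 RPKM, for Sult1a1 at 11.9 RPKM and for Fmo2 at 1.72 RPKM.

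The Cdkn1a library was in each region also the highest for most of the other 9 genes. VTA cocaine library 6 at 1-day and VTA cocaine library 4 at 28-days were the highest of their groups in meningeal fibroblast markers, at 2044 and 807 CPM, and the part of this in the levels was not tested. VTA saline library 6 at 1-day, at 335 CPM, was not the highest saline library in these markers.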

How the results depend on the processing

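The 1-day medians over the 10 genes kept their direction in all alternatives, with the VTA median at 0.89 with a pseudocount of 1 and 0.71 without the 2 libraries high in meningeal markers. The count of members called at 28-days was 0 in all of them. Single estimates near 0 changed sign. Pdk4 in the VTA at 1-day was -0.065 without the 2 libraries high in meningeal markers. In the 1-day saline libraries Hif3a and Pdk4 for NAc minus PFC were -0.25 and -0.045 and Sgk1 for VTA minus PFC was -0.039. With the replicate block added to the 1-day saline libraries these were -0.24, -0.035 and -0.066. Leaving out 1 library at a time, the ranges that crossed 0 were, for cocaine against saline, Cdkn1a -0.059 to 0.11 (NAc, 1-day), -0.11 to 0.043 (PFC, 1-day) and -0.036 to 0.15 (VTA, 28-days), Fkbp5 -0.073 to 0.031, Pdk4 -0.048 to 0.034 and Tsc22d3 -0.018 to 0.081 (NAc, 28-days), and Tsc22d3 -0.11 to 0.025 and Sult1a1 -0.12 to 0.046 (PFC, 28-days). Between regions they were Hif3a -0.060 to 0.18 and Plin4 -0.41 to 0.21 (NAc minus PFC), and Sgk1 -0.12 to 0.64 (NAc minus VTA) and -0.30 to 0.47 (VTA minus PFC). Plin4 in the PFC at 1-day was 1.35 with a pseudocount of 1. Of the 30 region tests, 15 passed, and 18 in the 1-day saline libraries. Calls over all genes moved more. The NAc at 1-day had 2 with edgeR and 21 with DESeq2. The VTA at 1-day had 28, with 2 when no filter was used, 55 with edgeR on recovered reads, 9 without the 2 libraries and between 0 and 54 without any 1 library. The 28-day tables had 0 with edgeR and 14, 74 and 2 with DESeq2, and the NAc interaction had 3 and 10. The causes were not tested. With the replicate number as a block, the member medians at 1-day were 0.62, 1.03 and 0.48, and the VTA had 13 calls. Same-number correlations were above 0.1 for 3, 4 and 1 of 6 pairs in the NAc, VTA and PFC. Closest to their own number were 2, 2 and 0 libraries. So few pairs cannot decide whether the numbers pair the libraries. With the column numbers, which are not the numbers of the labels, as a block at 28-days, 0 members and 0 of all genes were called in each region, and no member changed sign. For these column numbers 2 of 6, 3 of 5 and 1 of 6 correlations were above 0.1. Again 2, 2 and 0 libraries were closest to their own number, and pairing by number cannot be decided from these either. With 5 or 6 libraries per group, leaving out 1 library moved many 28-day estimates by over 1.5 times. In the VTA, Sgk1 moved from -0.69 to -0.13, Hif3a from -0.39 to -0.10 and Fmo2 from -1.28 to -0.79. In the PFC, Plin4 moved from -0.63 to -0.28, Fkbp5 from -0.17 to -0.02 and Sgk1 from -0.30 to -0.07. Others moved away from 0, such as Sult1a1 in the VTA from -0.59 to -0.93.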

Other observations

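The 8 genes whose levels followed the 10 genes most closely across the 35 saline libraries, after each group was centred, were Xdh, Gpr116, Abcc4, Paqr5, Fzd4, Arhgef2, Abcb1a and 9430020K01Rik, with Pearson correlations between 0.82 and 0.90 to the mean of the 10. Abcb1a, a drug efflux pump of the blood-brain barrier, was in the list of endothelial markers. The median correlation over the 13807 genes compared was -0.03. Among the 10 themselves, Sgk1 and Fmo2 followed the other 9 most closely, both at 0.85, and Zbtb16 least, at 0.41. The libraries share tissue, depth and preparation, and these values are a description.

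The list of 13 circadian clock genes, several of which respond to glucocorticoids, held no gene past an adjusted p under 0.05. The list was chosen with earlier results of these data known, so its counts are a description. At an unadjusted p under 0.05, 3 were higher and 0 lower after cocaine in the NAc at 1-day, 8 and 0 in VTA libraries and 2 and 0 in PFC libraries, where 2.76%, 11.1% and 1.64% of all genes were higher. Per2, a repressor in the clock, was among them in all 3, with log2 fold changes of 0.51 ± 0.10, 0.59 ± 0.18 and 0.27 ± 0.11. At 28-days 0 were higher and 5 lower in the NAc, 0 and 1 in VTA libraries and 0 and 3 in PFC libraries, where 3.42%, 6.39% and 2.97% of all genes were lower. Per2 was at -0.29 ± 0.09 in the NAc and -0.27 ± 0.13 in the PFC.

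Of 10 immediate-early genes, which follow neuronal activity, 6 of 10 tested in the NAc, 3 of 6 in the VTA and 4 of 10 in the PFC were higher after cocaine at 1-day at an unadjusted p under 0.05, and none was lower. The same shares of all genes apply. This list was also chosen with earlier results of these data known, so its counts are a description. Fos was at 0.95 ± 0.27 in the NAc and 0.74 ± 0.24 in the PFC. None passed an adjusted p under 0.05.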
